A study of Ovis aries with 9 samples.

Results

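Small RNA from the sperm of F1 rams was compared between sons of ewes that were overfed (OVER) and sons of ewes that were kept on restricted feed (RES). The samples were taken by the group written in their titles, which gave 6 of the 9 samples of the series. The other 3, from the standard feeding group (CON), are shown as context. The labels give the feeding only as over feeding, restricted feeding and standard feeding, and the series title places it in gestation. Breed, ram age, the amount of feed and the number of rams behind each table are not stated in the labels. All groups share the genotype given as WT, semen as the tissue and sperm as the cell type. They also share a lysis step with SDS and Triton X meant to remove somatic cells, TRIzol extraction, a size selection from 15 to 50 nt, the NEBNext small RNA kit and sequencing on a NovaSeq.

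Within each group the 3 deposited tables were copies of each other in sequence and read count, so each group was read as 1 library, and 2 libraries of 3 are compared here. Whether such a table is 1 library or a pool of several rams cannot be told from the files. No difference below therefore has a replicate check, no test was made between the groups, and every interval covers counting error only, since reads made by PCR without molecular identifiers are not independent molecules. A difference of 2-fold or more was counted as apart.

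Mature sperm carry little intact ribosomal RNA and a large pool of short RNAs. Fragments from the 5′ end of transfer RNAs, cut in or near the anticodon loop, are among the most abundant of these, and in rodents their levels in sperm have been reported to respond to the diet of the male. MicroRNAs act through a seed, bases 2 to 8 of the mature strand, which pairs with target messages, and Y RNAs are short polymerase III transcripts whose ends also give stable fragments.

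Reads numbered 8287937 in OVER, in 1296002 distinct sequences, and 13160116 in RES, in 1249810, so that 3 reads, the limit set for a count of 0, are 0.362 reads per 1000000 reads (RPM) in OVER and 0.228 RPM in RES. The libraries were of unlike length. The mean read was 23.3 nt in OVER, 27.2 nt in RES and 28.5 nt in CON. The share of reads from 15 to 20 nt was 29.6% in OVER against 10.3% in RES, while that from 29 to 33 nt was 19.9% against 41.5%. The commonest length was 22 nt in OVER, with 13.5% of reads, and 30 nt in RES, with 12%. A plain RPM thus mixes a change in an RNA with the change in read length. Values were therefore matched on length. At each of the 28 lengths from 15 to 42 nt the reads of a name were divided by all reads of that length in the library, and these shares were averaged over the lengths with the mean of both length distributions as weights. The result is a length-matched RPM, and its OVER over RES ratio is given on the log2 scale, so that 1 is 2-fold and positive values are higher in OVER. Shares at 1 length sum to the whole, so an RNA that fills a length in 1 library lowers the share of every other RNA there. How the length distributions came to differ was not tested.

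**Figure D1:**
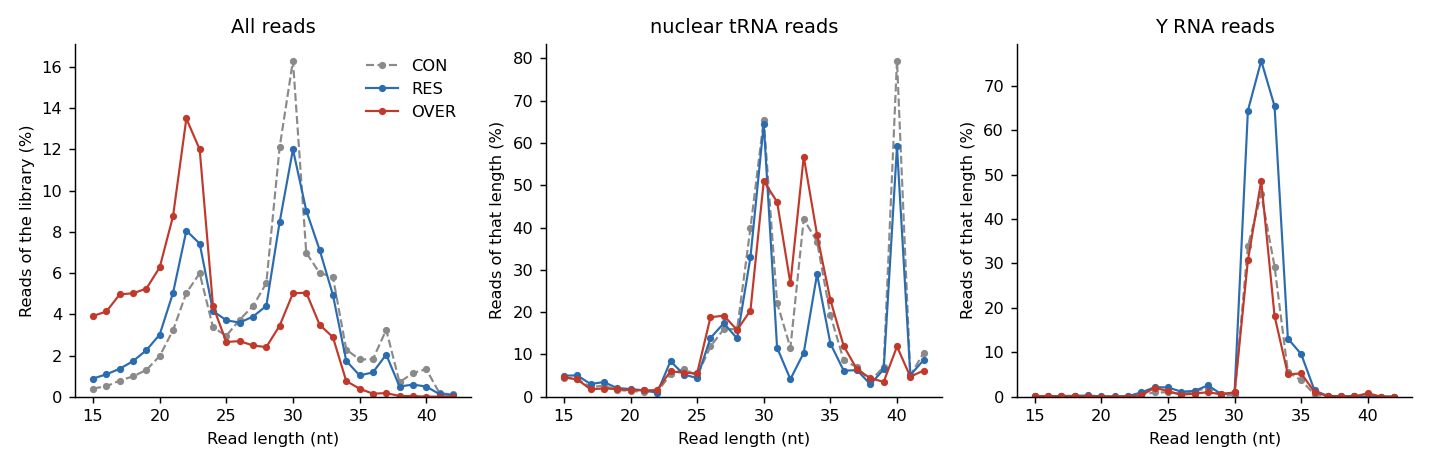
Percent of reads at each read length from 15 to 42 nt in the OVER, RES and CON libraries, with 1 line per library. OVER peaks at 22 nt with 13.5% of reads, while RES and CON peak at 30 nt with 12% and 16.3%.

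The reads on which the comparison turns are set out here. The first set holds 5′ fragments of nuclear tRNAs. Capitals mark the bases past the 30th, which are present in the longer forms.
tRNA-Gly 30 nt: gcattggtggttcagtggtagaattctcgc
tRNA-Gly 31 nt: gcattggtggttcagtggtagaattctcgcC
tRNA-Gly 32 nt: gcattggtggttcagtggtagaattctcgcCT
tRNA-Gly 33 nt: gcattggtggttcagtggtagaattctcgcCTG
tRNA-Glu-TTC 30 nt: tcccacatggtctagcggttaggattcctg
tRNA-Glu-TTC 33 nt: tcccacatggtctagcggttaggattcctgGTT
tRNA-Lys-TTT 33 nt: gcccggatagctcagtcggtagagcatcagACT
tRNA-Lys-CTT 33 nt: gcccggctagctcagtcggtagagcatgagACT
tRNA-His-GTG 30 nt: gccgtgatcgtatagtggttagtactctgc
tRNA-His-GTG 32 nt: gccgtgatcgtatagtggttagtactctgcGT

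The second set holds the most read sequence of the miRNA names that were farthest apart, with the seed in capitals. The names mir-200b and mir-200c share their most read sequence, and so do mir-23a and mir-23b. The mir-26b read is also the start of the leading mir-26a read.
mir-221: aGCTACATtgtctgctgggtttc
mir-127: tCGGATCCgtctgagcttgg
mir-200b and mir-200c: tAATACTGcctggtaatgatg
mir-200a: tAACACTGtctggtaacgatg
mir-23a and mir-23b: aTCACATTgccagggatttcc
mir-26b: tTCAAGTAatccaggatagg
mir-543: aAACATTCgcggtgcacttct
mir-16b: tAGCAGCAcgtaaatattggag
mir-323a: cACATTACacggtcgacctct
mir-191: cAACGGAAtcccaaaagcag

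The third set holds leading reads of the Y RNA and misc RNA classes, with no capitals, because their families differed in opposite directions. The numbers are those of the families described further on.
Y RNA family 1: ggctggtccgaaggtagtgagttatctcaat
Y RNA family 2: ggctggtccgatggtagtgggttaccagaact
misc RNA family 1: ctggaggatcgcttgagctcagg
misc RNA family 2: agttctgggctgcagtgcgct
misc RNA family 3: atgccgatcgggtgtccgcact

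By RNA class, the OVER library held less Y RNA and less ribosomal RNA at matched length than the RES library, and more small nucleolar and small nuclear RNA. Of 12 classes, 2 were at least 2-fold apart (16.7%), with 1 higher in OVER (8.33%) and 1 higher in RES (8.33%). Reads of small nucleolar RNA, which guides the modification of ribosomal RNA, came to 1308 length-matched RPM in OVER and 609.9 in RES, a log2 ratio of 1.10 (95% interval 1.05 to 1.15). They were higher in OVER at 26 of the 26 lengths that could be compared, which are lengths with at least 20 reads. Y RNA came to 59476 length-matched RPM in OVER and 119493 in RES, a log2 ratio of -1.01, and was higher in OVER at 3 of 25 lengths. Small nuclear RNA, part of the spliceosome, was just short of the 2-fold limit, with 29079 length-matched RPM in OVER and 14838 in RES, or 1.96-fold, and was higher in OVER at 12 of 27 lengths. In a bulk sample, fewer cells of a type and less RNA per cell cannot be told apart.

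These calls sat close to the limit, and the weighting decided some of them. With the OVER length distribution as weights the small nucleolar ratio was 0.87 and the small nuclear ratio 1.01. With the RES distribution the Y RNA ratio was just short of 2-fold. Over genome-matching reads alone it was -0.85. Without any length matching Y RNA was 3.71-fold lower in OVER, at 41640 RPM against 154340 RPM, so both scales give the same direction for this class.

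Ribosomal RNA fragments were 1.68-fold lower in OVER, at 79327 length-matched RPM against 133016, and were higher in OVER at 1 of 28 lengths. Mitochondrial tRNA was 1.24-fold lower, at 8215 against 10176. Nuclear tRNA as a whole came to 168098 length-matched RPM in OVER and 131302 in RES, a log2 ratio of 0.36. This direction depended on the matching, since in plain RPM nuclear tRNA was lower in OVER by 1.38-fold, and with Y RNA reads taken out of the totals the ratio was 0.07. The miRNA class also turned with the scale. It was 1.14-fold lower in OVER at matched length, at 134504 against 153486, and 1.43-fold higher in plain RPM. Reads also annotated as misc RNA made up 2.47% of this class in OVER and 8.29% in RES.

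The remaining classes differed little at matched length. Misc RNA came to 118183 in OVER and 94618 in RES, a log2 ratio of 0.32, and long non-coding RNA to 8283 and 10047, a ratio of -0.28. Reads without annotation had a ratio of 0.25, reads annotated only as antisense 0.14 and other RNA -0.08. In plain RPM long non-coding RNA was at 0.83 and other RNA at 0.35, so both changed sign with the scale. In CON, Y RNA was at 63815 length-matched RPM and small nucleolar RNA at 1558, both nearer to OVER than to RES.

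**Figure D2:**
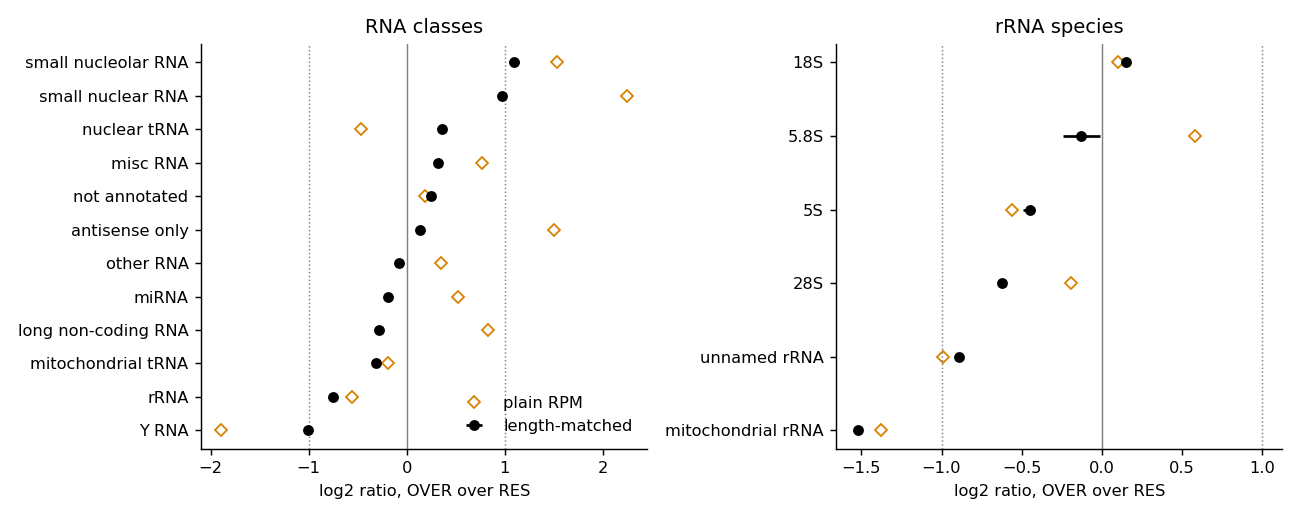
Length-matched log2 ratio of OVER over RES for the 12 RNA classes, with 95% counting intervals, beside the plain log2 ratio without length matching; 0 is no difference and the dashed lines are 2-fold. Small nucleolar RNA (1.10) and Y RNA (-1.01) lie just past 2-fold at matched length. Nuclear tRNA, miRNA, long non-coding RNA and other RNA change sign between the scales.

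The shares of tRNA and Y RNA differed in opposite directions at 31 and 33 nt. At 30 nt tRNA made up 51.0% of OVER reads and 64.5% of RES reads. At 31 nt it was 46.1% in OVER and 11.6% in RES, and at 33 nt it was 56.8% and 10.4%. Y RNA showed the mirror image, with 30.7% of 31-nt reads in OVER and 64.4% in RES, and 18.2% of 33-nt reads in OVER and 65.4% in RES.

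Among single tRNA names, glycine and lysine tRNAs were higher in OVER, and the glutamate tRNA with a CTC anticodon, the prolines and some mitochondrial tRNAs were lower. Of the 67 names with at least 200 reads in OVER and RES together, 19 were at least 2-fold apart (28.4%), 9 higher in OVER (13.4%) and 10 higher in RES (14.9%). The median log2 ratio over all 67 names was 0.02, with 34 above 0 and 33 below. All ends of a tRNA were summed, and a read that carried several names was given in full to each. Gly-GCC shares 98.6% of its OVER reads and 98.5% of its RES reads with other names, so the glycine names are close to 1 measurement.

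Lysine tRNA Lys-CTT had the highest ratio, with 3233 length-matched RPM in OVER and 898 in RES, a log2 ratio of 1.85 (1.81 to 1.89). Lys-TTT came to 2257 and 852, a ratio of 1.41. Gly-GCC, among the most abundant tRNAs in the libraries, came to 47821 length-matched RPM in OVER and 17593 in RES, a ratio of 1.44, with CON at 25025. Glycine and lysine thus stood above RES in OVER, and at matched length CON lay between OVER and RES for both. In plain RPM Gly-GCC was at 40729 in CON, above OVER and RES.

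The glycine ratio depended on the length matching. Without length matching Gly-GCC was at 33021 RPM in OVER and 23822 RPM in RES, or 1.39-fold, and after edgeR's TMM scaling without matching the log2 ratio was 0.07. With Y RNA reads left out of the totals it was 0.99. Gly-CCC, at 47509 and 17565 length-matched RPM, and Gly-TCC, at 38580 and 14456, followed the same reads. Lys-CTT kept a ratio above 1 in each setting tried, from 1.37 with the OVER weights to 3.58 over reads of 28 to 36 nt.

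Thr-TGT came to 522 length-matched RPM in OVER and 191 in RES, a log2 ratio of 1.45, on reads that were most often 16 nt long. It shares 98.0% of its OVER reads and 84.3% of its RES reads with other names. In OVER it had 6682 reads, while Thr-CGT and Thr-AGT had 517 and 151. Most of its OVER reads thus also carry the name of another amino acid. Alanine Ala-TGC came to 1062 and 504, a ratio of 1.08, and mitochondrial Ala-TGC to 61.6 and 23.5, a ratio of 1.39 (1.15 to 1.63). Just short of 2-fold were Ala-AGC and Arg-TCT, both at 0.97.

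On the other side, Glu-CTC came to 11814 length-matched RPM in OVER and 33115 in RES, a log2 ratio of -1.49, with CON at 52740. In plain RPM it was 5.63-fold lower in OVER, at 8176 against 46063. A name with an undetermined anticodon, Undet-NNN, shares all of its reads with other names, and its ratio was -1.43. Mitochondrial Ser-TGA came to 105 and 331, a ratio of -1.66, while the other mitochondrial serine tRNA, Ser-GCT, was at -0.75. Nuclear Leu-TAA came to 143 and 423, a ratio of -1.57. Mitochondrial Phe-GAA came to 869.6 and 2026, a ratio of -1.22.

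The arginine tRNA Arg-TCG had a ratio of -1.11, at 417 against 901 length-matched RPM. Its direction held over all lengths but not over reads of 28 to 36 nt, where the ratio was 0.84. The proline tRNAs Pro-CGG and Pro-AGG were at -1.09 each and Pro-TGG at -1.06, and they share nearly all of their reads. Sup-TCA, a rare name at 45.5 and 92.4 length-matched RPM, was at -1.02, and in plain RPM its ratio was 0.54. Asp-ATC, at -0.97, was just short of 2-fold.

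Of the other abundant tRNA names, His-GTG came to 66216 length-matched RPM in OVER and 51097 in RES, a ratio of 0.37, and in plain RPM it was lower in OVER, at a ratio of -0.65. Glu-TTC came to 28281 and 37226, a ratio of -0.40, and Val-CAC had a ratio of 0.09. The Glu-TTC 5′ fragment alone, followed below, had a ratio of 1.02 at matched length. Summed by amino acid, lysine had a ratio of 1.78, glycine of 1.42, threonine of 1.38 and proline of -1.06. A read named for several amino acids was counted in each sum, so the threonine sum holds mostly reads shared with another amino acid. The lysine sum was mixed too, since 42.6% of Lys-TTT reads in OVER and 91.2% in RES carry other names. In RES, Lys-CTT had 9406 reads, Lys-TTT 11256 and the lysine sum 17743. Most of the shared Lys-TTT reads of RES are thus named for another amino acid. Glutamate as a whole was at -0.45, and in RES 80.4% of Glu-TTC reads and 91.7% of Glu-CTC reads carried other names too.

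A list of 10 tRNAs whose sperm fragments have been reported to move with paternal diet in rodents was read beside these counts. All 10 were compared, 8 lay above 0 and 2 below, 5 were 2-fold or more higher in OVER and 1 was at least 2-fold higher in RES. Over all tRNA names these shares were 13.4% and 14.9%. The list's median was 0.89 where that of all tRNA names was 0.02. After TMM scaling without length matching 5 lay above 0 and 5 below, 1 was higher and 3 were lower by 2-fold, and the median was -0.05, so this balance also rests on the length matching. The 5 higher names are Lys-CTT, Lys-TTT and the glycine group. The glycine names share nearly all of their reads, and the lysine names share part of theirs with each other. Of 22 mitochondrial tRNAs, 15 could be compared, with 7 above 0, 8 below, 1 at least 2-fold higher in OVER and 2 higher in RES, and a median of -0.03. Of 52 nuclear tRNA names compared, 8 were higher and 8 lower by this limit, with a median of 0.03.

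**Figure D3:**
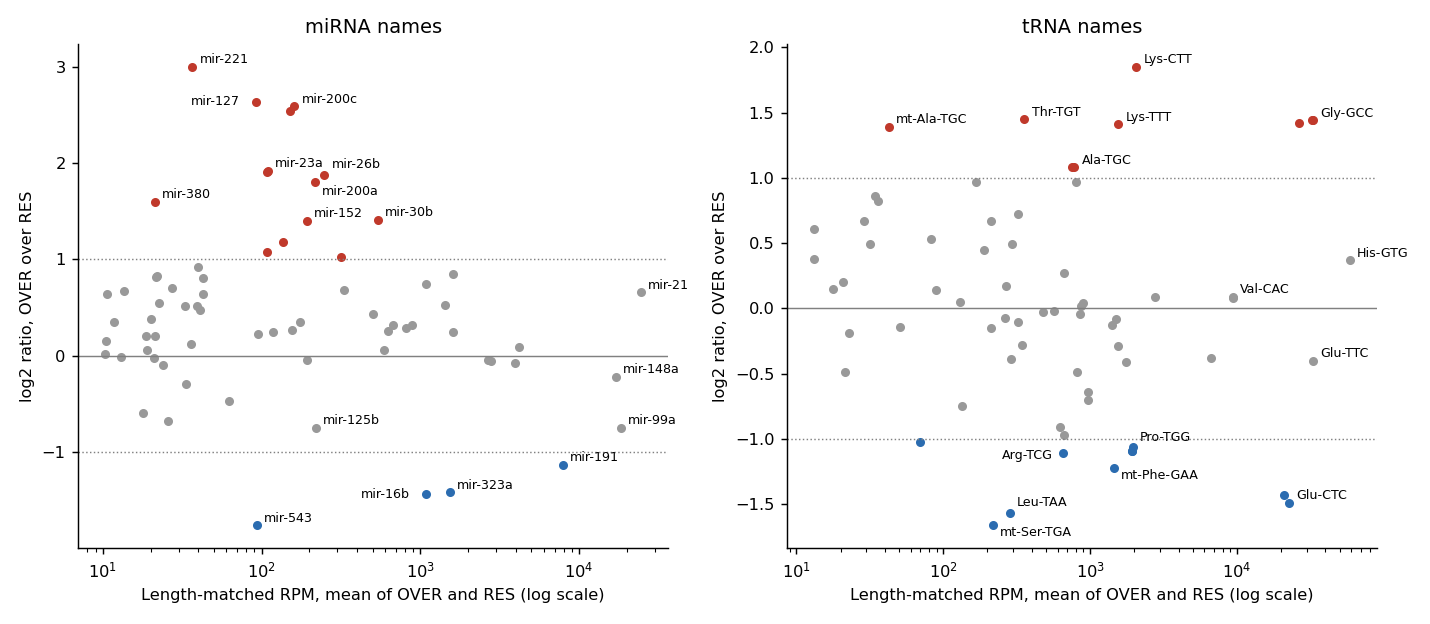
Length-matched log2 ratio of OVER over RES against the mean length-matched RPM (log axis) for 69 miRNA names and 67 tRNA names, 1 point per name, with dashed lines at 2-fold. Names past 2-fold lie on both sides for tRNAs (9 higher and 10 lower) and mostly above 0 for miRNAs (14 higher and 4 lower).

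Taken by single reads, the 5′ tRNA fragments differed both in amount and in where they ended. The glycine and Glu-TTC fragments ended mainly at 30 nt in RES and at 31 and 33 nt in OVER, from the same 5′ starts. The 31-nt glycine read was at 15110 RPM in OVER, 494 RPM in RES and 2547 RPM in CON. Among 31-nt reads alone it came to 299253 RPM in OVER and 5469 RPM in RES, a 54.7-fold difference. The 30-nt read, 1 base shorter, went the other way in plain RPM, with 5389 in OVER, 14155 in RES and 18845 in CON. The 33-nt glycine read was alike at its own length, with 33365 RPM of 33-nt reads in OVER and 35713 in RES.

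Within the reads of the glycine fragment, which are those that share its first 18 bases, the 31-nt length held 56.6% in OVER, 2.37% in RES and 7.15% in CON. The 30-nt length held 20.2% in OVER, 66.4% in RES and 52.7% in CON. These shares do not depend on the other RNAs of the same length. They show the glycine fragment of OVER ending mainly at base 31 and that of RES and CON at base 30.

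The Glu-TTC fragment differed in the same direction. Its 33-nt read was at 3533 RPM in OVER, 96.6 RPM in RES and 1013 RPM in CON, and its 30-nt read at 826, 3580 and 5725 RPM. The 33-nt length held 64.3% of this fragment in OVER, 1.82% in RES and 11% in CON, while the 30-nt length held 14.9%, 67.0% and 62.5%. All reads of the fragment came to 5613 RPM in OVER and 5399 RPM in RES. Its length-matched log2 ratio was 1.02, where that of the whole Glu-TTC name was -0.40.

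For the lysine fragments both the amount and the end differed. The 33-nt Lys-TTT read was at 812 RPM in OVER, 8.59 RPM in RES and 186 RPM in CON, and this length held 82.9% of the fragment in OVER, 6.18% in RES and 53.3% in CON. In RES its commonest length was 24 nt, with 41.1%. All reads of the Lys-TTT fragment together came to 1032 RPM in OVER and 141 RPM in RES. The 33-nt Lys-CTT read was at 387 RPM in OVER, 14.5 RPM in RES and 181 RPM in CON. All reads of that fragment came to 1202 RPM in OVER and 149 RPM in RES, and the length-matched log2 ratio of the fragment was 4.07 where that of the whole Lys-CTT name was 1.85.

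The histidine fragment, the most abundant in OVER of those followed, kept its main end. Its 30-nt read was at 14721 RPM in OVER and 29861 RPM in RES, which among 30-nt reads alone is 1.17-fold higher in OVER, and this length held 55.0% of the fragment in OVER and 70.7% in RES. Its minor 32-nt read was at 1094 RPM in OVER and 49.8 RPM in RES. Minor forms on both sides of the main end held more of the fragment in OVER, with 10.2% against 5.81% at 26 nt, and the mean length of its reads was 29.60 nt in OVER and 29.64 nt in RES, so this fragment was not longer in OVER.

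The valine fragment picked through the name Val-TAC showed the difference in a minor form. It had 72506 reads in OVER, more than the 58169 of that name, so part of it carries other names. Among reads of 25 nt or longer, the leading read of the main valine start was named Val-AAC and Val-CAC. A separate Val-TAC start had 797 reads in OVER and 374 in RES. In the fragment as picked, the 33-nt read was at 664 RPM in OVER, 49.4 RPM in RES and 693 RPM in CON. This length held 9.12% of the fragment in OVER, 0.788% in RES and 10.9% in CON. Its main form of 23 nt was at 5899 RPM in OVER and 5071 RPM in RES.

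The proline fragment Pro-TGG differed in amount, with 257 RPM in OVER and 1604 RPM in RES, a length-matched log2 ratio of -1.50, and was not longer in OVER.

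These fragments were picked after their values were seen. To count the pattern more widely, all 18-base starts of tRNA reads with at least 200 reads in each library were taken, among reads of 25 nt or longer, which gave 42 starts. The share of reads of 31 nt or longer was higher in OVER in 34 of the 42, and the mean read length was longer in OVER in 27. The median share was 64.5% in OVER, 11.7% in RES and 26.3% in CON. Many of these starts are shifted or slightly altered copies of the same tRNA fragment and are not independent. The glycine, Glu-TTC, lysine, histidine and proline fragments followed above are among the 42. The limit of 31 nt is also where the glycine fragment had already been seen to differ. This count is therefore not a separate check of the picked fragments. Among the exceptions were a Pro-AGG start, with 3.02% in OVER and 11.2% in RES, and a Cys-GCA start, with 86.7% and 95.2%.

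**Figure D4:**
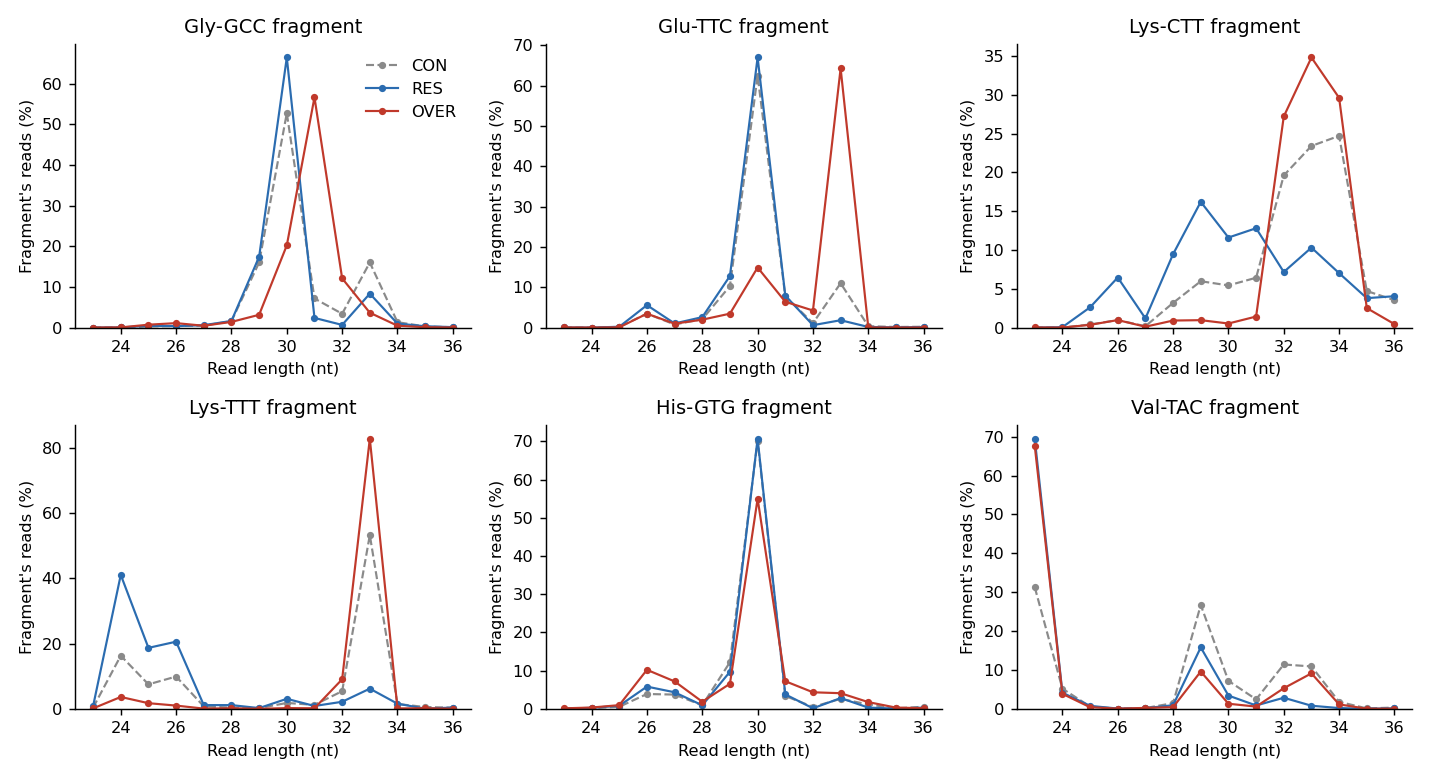
Share of each 5′ tRNA fragment's reads by the length of the read, in percent, for OVER, RES and CON, with 1 panel per fragment. In OVER the glycine fragment ends mainly at 31 nt (56.6%) and the Glu-TTC fragment at 33 nt (64.3%), whereas in RES both end mainly at 30 nt (66.4% and 67.0%).

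The Y RNA class held families that went opposite ways. A family here is the set of reads of 1 class that share at least 14 bases in a row with a leading read, and the families were formed after the values were seen. Family 1, whose leading read matches the known 5′ end of Y1 RNA, came to 37870 RPM in OVER, 150357 RPM in RES and 69102 RPM in CON, with a length-matched log2 ratio of -1.07. Family 2, whose leading read matches the known 5′ end of Y4 RNA, came to 1681 RPM in OVER, 219.8 RPM in RES and 2200 RPM in CON, with a ratio of 3.81 (3.75 to 3.87). It was higher in OVER at 17 of 17 lengths. The names Y1 and Y4 come from the known sequences of these RNAs, since the annotation gives only the class. The class ratio follows family 1, which held 90.9% of Y RNA reads in OVER and 97.4% in RES.

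The 4 leading Y1-like reads differ only in where they end, at 31, 32, 33 or 34 nt, and all were lower in OVER at their own length. The 31-nt read was at 14776 RPM in OVER and 56666 RPM in RES, the 32-nt read at 15378 and 52529, and the 33-nt read at 4844 and 31732. At matched length these were 2.14-fold, 1.68-fold and 3.83-fold lower. The 30-nt form, a minor one, was 1.11-fold higher in OVER at its length.

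The misc RNA class, which was little different as a whole, also held families in opposite directions. Its 3 leading reads match different stretches of 7SL RNA, part of the signal recognition particle, a name taken from the known sequence and not from the annotation. Family 1 came to 81639 RPM in OVER, 26619 RPM in RES and 12140 RPM in CON, a length-matched log2 ratio of 1.07. Family 2 came to 40380, 24126 and 17475 RPM, a ratio of 0.62. Family 3 came to 3534, 17182 and 4451 RPM, a ratio of -2.88, or 7.38-fold lower in OVER.

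Stretches of 1 RNA were therefore not in 1 proportion in the libraries. The 22-nt read of family 3 was at 509 RPM in OVER and 5463 RPM in RES, and the 23-nt read of family 1 at 29626 RPM and 5934 RPM. Among small nuclear RNA reads, family 1, whose leading reads match U2 RNA, came to 31642 RPM in OVER and 5533 RPM in RES, with a ratio of 1.10, and it held 75.4% of the class in OVER and 62.7% in RES. Small nuclear families 2 and 3 had ratios of 1.18 and 1.35.

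Ribosomal RNA fragments were lower in OVER for 5 of 6 species named by the annotation, and 1 of the 6 was at least 2-fold apart (16.7%), which was the mitochondrial species. Mitochondrial rRNA came to 16379 length-matched RPM in OVER, 47057 in RES and 20907 in CON, a log2 ratio of -1.52 (-1.53 to -1.51). It was higher in OVER at 2 of 28 lengths. Reads named rRNA with no species came to 8561 and 15858, a ratio of -0.89, and 28S to 31391 and 48140, a ratio of -0.62. The 5S ratio was -0.45 and the 5.8S ratio -0.13 (-0.24 to -0.01). The small subunit rRNA, 18S, was the 1 species above 0, at 20408 and 18452, a ratio of 0.15.

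The leading rRNA reads are shown because, for 18S, a long and a short read from the same place differed in opposite directions. The 23-nt 18S read is the 3′ part of the 36-nt 18S read and is in capitals within it.
mitochondrial rRNA, 25 nt: ccgaaactcaaaggacttggcggtg
28S, 21 nt: tgaaaagaactttgaagagag
18S, 36 nt: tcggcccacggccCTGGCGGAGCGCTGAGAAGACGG
18S, 23 nt: ctggcggagcgctgagaagacgg
The 25-nt mitochondrial read was at 157 RPM in OVER, 1114 RPM in RES and 201 RPM in CON, and was 5.08-fold lower in OVER at its length. The 21-nt 28S read was at 1559, 3204 and 186 RPM. The 36-nt 18S read was at 63.6 RPM in OVER, 2063 RPM in RES and 3727 RPM in CON. Its 23-nt part was at 618, 252 and 132 RPM.

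For 18S the direction thus depended on the read, also at matched length, where the 36-nt read was 4.10-fold lower in OVER and the 23-nt read 1.52-fold higher.

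Among miRNA names, more were higher in OVER than in RES at matched length, although the class as a whole was slightly lower. Of 69 names with at least 200 reads, 18 were at least 2-fold apart (26.1%), 14 higher in OVER (20.3%) and 4 higher in RES (5.80%). The median log2 ratio was 0.35, with 51 names above 0 and 18 below. Without length matching all 44 names past 2-fold were higher in OVER, with a median ratio of 1.21, and after TMM scaling without matching 17 were apart, 10 higher in OVER and 7 higher in RES. The balance of higher and lower names therefore depends on the scaling, and the names are best read against the median.

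The highest ratio was that of mir-221, a miRNA known for its part in cell proliferation, with 65.1 length-matched RPM in OVER, 8.14 in RES and 61.4 in CON, a log2 ratio of 3.0 (2.66 to 3.34). The imprinted mir-127 came to 159 in OVER, 25.5 in RES and 59.5 in CON, a ratio of 2.64 (2.44 to 2.84). Its reads were also shorter in OVER, with a mean of 20.16 nt against 21.15 nt. Both names were low in RES and were higher in CON than in RES.

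The miR-200 family, which keeps epithelial cells in their epithelial state, was the group that stood highest in OVER. The name mir-200c came to 276 length-matched RPM in OVER, 45.8 in RES and 299 in CON, a ratio of 2.59. The name mir-200b came to 258, 44.3 and 283, a ratio of 2.54, and shares 60.3% of its OVER reads with other names. The name mir-200a, which has another seed, came to 335, 95.9 and 315, a ratio of 1.80. For all 3, OVER was near CON at matched length and RES stood below both.

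The paralogs mir-23a and mir-23b, which share nearly all reads, came to 173 and 45.8, a ratio of 1.92, and to 170.1 and 45.3, a ratio of 1.91. The name mir-26b came to 391 and 106, a ratio of 1.88. It shares 91.0% of its OVER reads and 92.1% of its RES reads with other names, and its most read sequence is also the start of the leading mir-26a read, while mir-26a itself was at 0.53. Further names past 2-fold were mir-380 at 1.60, mir-30b at 1.41, mir-152 at 1.40, mir-369 at 1.18, let-7b at 1.08 and mir-106b at 1.03. Of these, mir-30b was the most read, at 785 length-matched RPM in OVER, 295 in RES and 204 in CON. The let-7b value rests on reads of which 94.9% in OVER and 96.3% in RES are shared with other names. After TMM scaling without matching mir-152, mir-30b, mir-106b and mir-369 were short of 2-fold, at 0.99, 0.97, 0.82 and 0.80. Just short of the limit was mir-410, at 0.92.

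Higher in RES were mir-543, mir-16b, mir-323a and mir-191. The name mir-543 came to 42.6 length-matched RPM in OVER, 144 in RES and 201 in CON, a ratio of -1.76 (-1.91 to -1.61). The name mir-16b came to 585, 1592 and 2302, a ratio of -1.44, and mir-323a to 834, 2232 and 1799, a ratio of -1.42. The last, mir-191, was the most read of these, at 4978 in OVER, 10874 in RES and 9368 in CON, a ratio of -1.13. In plain RPM these 4 were also lower in OVER, but within 2-fold, from -0.97 for mir-543 to -0.21 for mir-191. CON was nearer RES for all 4, whereas among the 14 names higher in OVER it was nearer OVER in 8 and nearer RES in 6.

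Next in order below these were mir-125b and mir-99a, both at -0.75, mir-329b at -0.68 and mir-329a at -0.59. Of these, mir-99a was abundant, at 13603 length-matched RPM in OVER and 22900 in RES. The name mir-21, the most read in OVER and the next after mir-99a in RES, came to 30110 in OVER, 19023 in RES and 30138 in CON, a ratio of 0.66. Other abundant names were closer, with mir-148a at -0.22, mir-30a at 0.09, mir-30d at -0.08, mir-10a at -0.05 and mir-10b at -0.04.

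By family, all 7 compared members of let-7, which acts in differentiation, lay above 0 with a median of 0.32, near the 0.35 of all names, and 1 was past 2-fold. All 4 compared members of the miR-10, miR-99 and miR-125 group lay below 0, with a median of -0.40, and none was past 2-fold. In plain RPM all 4 lay above 0, at a median of 0.36, but below the 1.21 of all names, and after TMM scaling without matching their median was -0.85 where that of all names was 0.00. This group thus stood below the median of all miRNA names on each of these scales. The 5 compared members of the miR-17-92 cluster and its paralogs lay above 0, with a median of 0.52, and after TMM scaling 3 of them lay below, with a median of -0.13. Of the miR-30 family, 3 of 4 lay above 0 with a median of 0.22, and after TMM scaling 1 did. Of the 3 compared names of the miR-103, miR-107, miR-15 and miR-16 group, 2 lay above 0 and mir-16b was below, while after TMM scaling all 3 lay below.

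Imprinted miRNAs of the DLK1-DIO3 domain, which are transcribed from the maternal allele, went both ways. Of 28 compared, 18 lay above 0 and 10 below, 3 were at least 2-fold higher in OVER (mir-127, mir-380 and mir-369) and 2 higher in RES (mir-543 and mir-323a), with a median of 0.22. After TMM scaling 12 lay above 0 and 16 below. The 9 compared miRNAs listed as abundant in sperm of other species had a median of -0.05, with 3 above 0 and 6 below, and in plain RPM 8 of them lay above 0. The only one past 2-fold at matched length was mir-191, at the value given above.

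The reads of a miRNA were slightly shorter in OVER. Among 62 names with at least 100 reads in each library, the mean read length was shorter in OVER in 49. The median difference was -0.08 nt, with a range from -1.12 to 0.17 nt. Most names thus differed by a small part of a base. At 16 nt, reads of the miRNA class were 1.22% of OVER and 6.73% of RES reads, and at 22 nt they were 41.4% and 48.7%. These are shares of all reads at 1 length, so they do not measure the length of a miRNA's reads.

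Not all miRNA reads carry an ovine name, so reads were also grouped by seed. Among genome-matching miRNA reads of 18 to 26 nt that belong to 1 class, 151 seeds had at least 200 reads, and 43 were at least 2-fold apart (28.5%), 32 higher in OVER (21.2%) and 11 higher in RES (7.28%). The seeds of the marker miRNAs below were named from their known mature sequences. These reads are shown because the markers of blood and epithelium differed most, with the seed in capitals.
miR-34c: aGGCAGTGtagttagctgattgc
miR-223: tGTCAGTTtgtcaaatacccca
miR-451: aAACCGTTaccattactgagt
miR-486: tCCTGTACtgagctgccccgagt

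The label sperm was read beside the seed shared by miR-34b, miR-34c and miR-449, which male germ cells express strongly. Other miRNAs and other cells can carry the same seed, so its count does not settle the cell type. It had 92669 reads in OVER, 94592 in RES and 60606 in CON, with a length-matched log2 ratio of -0.07. It was thus abundant in both libraries and alike at matched length, while in plain RPM it was 1.56-fold higher in OVER. Markers of other cells were not alike. The red blood cell miRNAs miR-451 and miR-486 were counted 7 and 4 times in OVER, 1745 and 2161 times in RES, and 3 and 7 times in CON. The seed of miR-223, a miRNA of neutrophils and other myeloid cells, was counted 490 times in OVER, 10 times in RES and 366 times in CON, a log2 ratio of 5.53 (4.63 to 6.44).

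Of the 7 listed blood seeds, 3 could be compared, 1 higher in OVER and 2 higher in RES. The summed level of all 7 was 75.7 RPM in OVER, 300.5 RPM in RES and 45.5 RPM in CON. Each of the 3 compared seeds reached the limit of 200 reads in OVER and RES together through 1 library alone. A blood seed with few reads in both libraries could not enter, so this tally adds nothing to the read counts above. The other blood seeds were few, with miR-142 at 62 and 56 reads for its arms in OVER and 1 and 9 in RES, miR-150 at 7 and 28, and miR-144 at 1 and 0. Of the 3 epithelial seeds, 2 could be compared and both were higher in OVER, and their summed level was 1990 RPM in OVER, 334 RPM in RES and 1345 RPM in CON. The epithelial miR-205 was at 0 in all 3 libraries. None of the 7 muscle and stroma seeds had enough reads, and their sum was 18.8 RPM in OVER and 9.04 RPM in RES.

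Blood and epithelial markers thus differed between the 2 libraries, with red cell markers higher in RES and epithelial and myeloid markers higher in OVER. At matched length the epithelial sum was 1658 RPM in OVER, 413 in RES and 2143 in CON. The miR-223 seed was at 47.1, 1.02 and 70.9. The epithelial and miR-223 seeds were therefore low in RES, and at matched length CON stood above OVER for both. In plain RPM this order of CON and OVER was reversed. The epithelial sum was then 1990 in OVER and 1345 in CON, and the miR-223 seed was at 59.1 and 36.7. The mir-200 names above are themselves members of the epithelial list. The part of these cells in the other miRNA, Y RNA and rRNA differences was not tested.

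**Figure D5:**
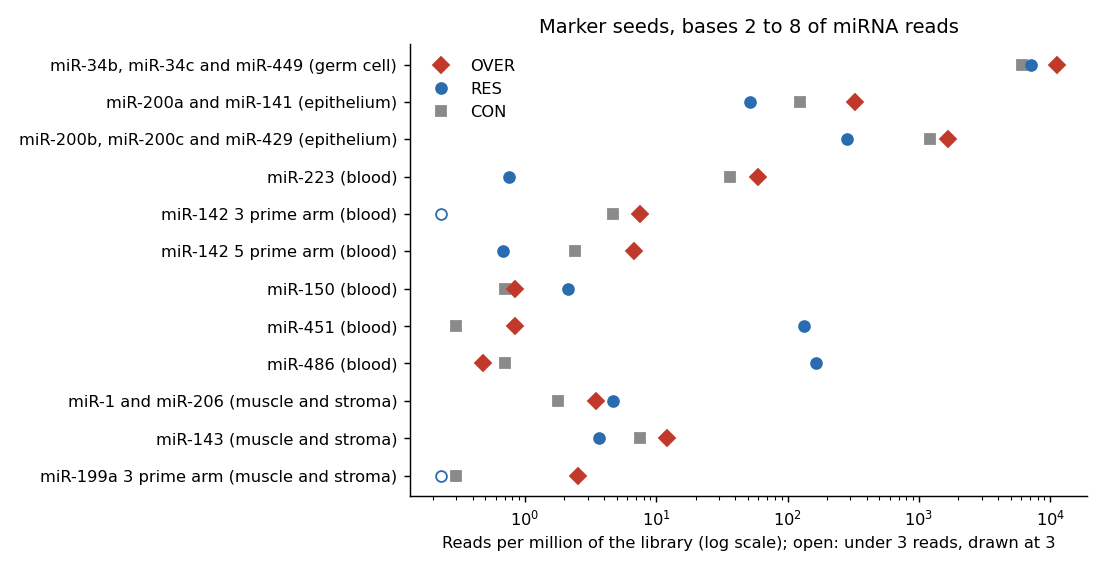
RPM (log axis) of each marker seed in the OVER, RES and CON libraries, grouped by cell type, with 1 point per library. The miR-451 and miR-486 seeds stand far above the other libraries in RES (133 and 164 RPM against 0.845 and 0.483 RPM in OVER), and the epithelial seeds stand lowest in RES.

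Single annotated sequences differed more often than names. Of 3710 genome-matching annotated sequences with at least 200 reads in OVER and RES together, 2030 were at least 2-fold apart at their own length (54.7%). Of all 3710, 636 were higher in OVER (17.1%) and 1394 higher in RES (37.6%). At each length this filter favours sequences high in the library with more reads there. Over all lengths RES had more reads, 13160116 against 8287937, so the split by direction, also within a class, depends in part on the filter. By class, 49.1% of 1378 rRNA sequences were higher in RES and 9.07% higher in OVER, with a median log2 ratio of -0.96. Of 87 small nuclear sequences, 48 were higher in OVER and 10 higher in RES, with a median of 1.09. For nuclear tRNA, 169 of 508 were higher in OVER and 135 higher in RES, with a median of 0.10. The near-zero median of nuclear tRNA thus covers sequences far apart in both directions.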

How the data were processed

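Small RNA was sequenced from ram sperm, and the authors deposited 1 table per sample with, per the file headers, each distinct sequence, its length, its count of reads, a genome match flag and an annotation. The deposited counts are raw, as whole numbers. For tools, edgeR is named by the submitters' processing notes. Not given in the sources used here are aligner, annotation tool and build. All 3 tables of a group were the same in sequences, reads and flags, with annotation terms differing in 0 to 3 sequences, so 1 table per group was used.

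Each sequence was put in 1 of 12 classes in a fixed order, and miRNA and tRNA names with at least 200 reads in OVER and RES together were compared by length-matched RPM. Intervals are 95% counting intervals, and a count of 0 was set to 3 reads. The calculation was tested on simulated data. The text names the 8 miRNA and 6 tRNA names farthest apart in each direction, the 8 and 6 highest, all classes and rRNA species, and listed members at least 2-fold apart. Members and lists were chosen with earlier results of these data known. The seeds, families, tRNA fragments and single rRNA, Y RNA and misc RNA reads were chosen after their values were seen. Some single reads are not reported here.

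The alternatives were other length weights, no length matching, TMM (edgeR 4.0.16) and DESeq2 1.42.0 size factors in R 4.3.3, other totals, other read filters, narrower length windows and an equal split of shared reads. Totals without Y RNA reads were added after seeing the data. Python 3.11.15 with numpy 2.4.6, pandas 2.3.3, scipy 1.17.1 and matplotlib 3.10.9 was used. All 69 compared miRNA names were found among RefSeq genes (assembly ARS-UI_Ramb_v3.0), whose coordinates were not used. Sequences are those of the deposited tables.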

Additional observations from a re-analysis of the deposited data

How the results depend on the processing

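With 1 library per group, leaving out a replicate was not possible, and reading the table of replicate 3 in place of replicate 1 gave the same counts of classes, miRNA and tRNA names. No paired analysis was possible because the tables of a group are copies of 1 library and no test was made. Of 12 classes, 2 were at least 2-fold apart. With the RES lengths as weights and with Y RNA reads left out of the totals it was 1 each, and in plain RPM it was 4. For miRNA names the count of 18 became 44 in plain RPM, all higher in OVER, and 34 when every name with 1 read was kept. Its split of 14 higher and 4 lower became 10 and 7 under both TMM and DESeq2 scaling without length matching, and 22 and 3 with miRNA reads of each length as the total. The 18 calls kept their direction in each setting run, and 14 of them stayed 2-fold apart in plain RPM. For tRNA names the count of 19 ranged from 13, with tRNA reads of each length as the total, to 27, in plain RPM. Its split of 9 higher and 10 lower became 19 and 8 in plain RPM, 13 and 5 with annotated reads as the total, 8 and 5 with tRNA reads as the total, 11 and 7 both over genome-matching reads and over 28 to 36 nt, and 10 and 8 with shared reads split. Of the tRNA names apart by 2-fold, 3 changed sign. Arg-TCG was at 0.84 over 28 to 36 nt, Gly-TCC was at -0.02 with DESeq2 size factors, and Sup-TCA was at 0.54 in plain RPM, 0.14 with TMM and 0.09 with DESeq2. The cause was not tested. Depth limits names with few reads, as 3 reads are 0.362 RPM in OVER and 0.228 RPM in RES.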

Other observations

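Reads without annotation came to 384112 length-matched RPM in OVER, 323376 in RES and 417916 in CON, and were higher in OVER at 26 of 28 lengths. Reads annotated only as antisense came to 8381 RPM in OVER and 2955 RPM in RES, 2.84-fold higher without length matching and 1.11-fold higher with it. Small nucleolar family 5, formed like the families of the other classes, came to 33.5 RPM in OVER, 5.02 RPM in RES and 64.2 RPM in CON, with a length-matched log2 ratio of 3.52 (from 278 and 66 reads). Family 2 of that class had a ratio of 2.80 (from 508 and 176 reads), while families 1 and 4 had ratios of 0.11 and 0.02, so the class difference was uneven within it.

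Other seeds that differed were ATGGCGC, the seed of miR-652 by its known sequence, with 1231 reads in OVER and 48 in RES and a ratio of 4.57, and GTGTATT, which matches the other arm of miR-223, with 595 and 42 reads and a ratio of 3.69. Reads of the miRNA class without an ovine name were 34.3% of the class in OVER and 40.9% in RES.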
